A study of Homo sapiens with 4 samples.

Results

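The 6 genes that encode the replacement H2A variants MACROH2A1, MACROH2A2, H2AZ1, H2AZ2, H2AX and H2AJ were examined in maps of macroH2A1 from IMR90 cells, a strain of human fetal lung fibroblasts grown in serum. The genes were taken by symbol from the annotation, each with its annotated span and 50 kb on either side, and all 6 were among the 19483 protein-coding genes measured. The series held 4 samples with no treatment named in the labels, 2 macroH2A1 chromatin immunoprecipitations (ChIP), labelled as biological replicates, and 2 inputs, all from formaldehyde-fixed chromatin. The deposited values were one log2 ratio of ChIP over input for each segment of the genome, so the inputs entered only as the denominator. A level below is the mean log2 ratio over the assayed bases of a region, with its SD over the 2 replicates, and a value of 0 means ChIP equal to input after the authors' scaling. Enriched segments are those with a ratio above 0 on the log2 scale that also have a deposited −log10 p of 2 or more.

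Replacement variants take the place of the H2A that is made in S phase, and their genes lie as single genes outside the large histone clusters. The macroH2A proteins join an H2A-like part to a large macro domain and are known from the inactive X chromosome and other silent chromatin. H2A.Z, made from 2 genes, sits at promoters and enhancers, H2AX is phosphorylated next to DNA breaks, and H2A.J is known to accumulate in senescent human fibroblasts. All of these genes are autosomal, and the ChIP antibody was directed against the product of 1 of them, MACROH2A1. Because chromatin of many cells was pooled, a low ratio in every cell and a mixture of high and low cells cannot be told apart. No RNA was measured here, so neither the fibroblast identity nor the expression of the 6 genes was checked.

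The promoters of 4 members are shown. The gene starts of MACROH2A1, MACROH2A2 and H2AZ2 lie at or near the edges of enriched macroH2A1 segments. That of H2AX lies 41.7 kb and 42.5 kb from the nearest enriched segment upstream in replicates 1 and 2. Each is the RefSeq promoter of 300 bases, 250 before to 50 after the start, from a table of build GRCh38.p14, and each matched the hg19 reference at exactly 1 place within 100 kb of its gene. Capitals mark the motifs CCAAT and TATAAA on either strand (ATTGG and TTTATA on the other strand), and no CCAAT overlapped a TATAAA in these 4. The positions are chr5:134734872-134735171 for MACROH2A1 (minus strand), chr10:71812352-71812651 for MACROH2A2 (plus strand), chr7:44887637-44887936 for H2AZ2 (minus strand) and chr11:118966126-118966425 for H2AX (minus strand), all in hg19.
MACROH2A1: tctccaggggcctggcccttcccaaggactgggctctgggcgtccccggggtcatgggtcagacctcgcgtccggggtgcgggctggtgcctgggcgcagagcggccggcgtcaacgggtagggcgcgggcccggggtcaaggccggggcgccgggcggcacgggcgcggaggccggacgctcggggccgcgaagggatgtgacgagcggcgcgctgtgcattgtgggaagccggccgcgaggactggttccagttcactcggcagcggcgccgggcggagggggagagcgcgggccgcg
MACROH2A2: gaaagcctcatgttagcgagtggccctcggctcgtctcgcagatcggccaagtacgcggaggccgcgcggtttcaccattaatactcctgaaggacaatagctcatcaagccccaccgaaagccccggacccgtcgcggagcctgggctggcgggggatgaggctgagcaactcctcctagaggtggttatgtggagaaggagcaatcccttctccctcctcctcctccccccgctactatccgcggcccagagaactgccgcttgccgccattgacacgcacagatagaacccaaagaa
H2AZ2: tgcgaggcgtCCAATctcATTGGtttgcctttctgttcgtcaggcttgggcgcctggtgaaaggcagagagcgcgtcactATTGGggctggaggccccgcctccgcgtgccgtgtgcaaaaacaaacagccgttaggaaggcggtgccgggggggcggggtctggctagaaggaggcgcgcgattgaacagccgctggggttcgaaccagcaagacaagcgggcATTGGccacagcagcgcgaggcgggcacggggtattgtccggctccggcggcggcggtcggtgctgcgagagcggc
H2AX: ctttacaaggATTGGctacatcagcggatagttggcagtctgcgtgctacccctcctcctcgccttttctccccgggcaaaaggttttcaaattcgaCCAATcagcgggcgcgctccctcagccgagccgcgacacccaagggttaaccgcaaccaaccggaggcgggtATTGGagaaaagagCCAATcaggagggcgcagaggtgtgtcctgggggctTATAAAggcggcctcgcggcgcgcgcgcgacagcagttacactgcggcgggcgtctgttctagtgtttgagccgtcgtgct

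CCAAT was found in the promoters of the 4 other variants and in 1 of the RefSeq promoters of the macroH2A genes. The MACROH2A1 promoter shown, whose start lies 683 bases inside the annotated gene start, and that of MACROH2A2 held no CCAAT, whereas H2AZ2 and H2AX held 4 copies each and H2AZ1 and H2AJ 3 each; CCAAT is the sequence recognised by the factor NF-Y. A second RefSeq promoter of MACROH2A1, at chr5:134735528-134735827, whose start is 27 bases from the annotated gene start, held 2 copies of CCAAT and 10 of CG. TATAAA was present once in H2AZ1 and once in H2AX and in none of the others. Of 35114 promoters of the same length, 34.6% held CCAAT and 11.5% held TATAAA on either strand. The MACROH2A1 promoter shown was rich in the dinucleotide CG, with 42 copies against a median of 14, and 94.2% of promoters had fewer. These are matches of letters only, and the segments that cover the promoters are far longer than 300 bases.

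MacroH2A1 was not enriched over the bodies of the H2A variant genes, as at most measured genes, and the levels of the 6 differed widely. No base of any of the 6 genes lay in segments enriched in both replicates, a state shared by 69.4% of measured genes. None of the 6 was enriched over at least 50% of its span in both replicates, against 19.3% of measured genes. The gene level was below 0 in both replicates for 5 of 6 members, against 69.7% of measured genes, and was -1 or lower in both for the same 5, against 42.4%. The exception was H2AJ, with 60.5% of measured genes lower by the mean of the replicates. The median gene level of the 6 was -1.79, and that of all measured genes was -0.82. With 6 genes and 1 condition no test was made of these counts. The deposited −log10 p is listed as 0 for 68.5% and 68.6% of negative segments in replicates 1 and 2, so most segments below 0 carry no significance value of their own.

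The 2 H2A.Z genes and H2AX had the lowest levels. H2AZ1 (chr4:100869243-100871512, hg19, minus strand) had a level of -2.20 in replicate 1 and -2.55 in replicate 2. Its mean of -2.38 ± 0.24 (SD, n = 2) was an input excess of 5.19-fold, and 5.93% of measured genes lay lower. H2AZ2 (chr7:44866390-44887686, minus strand) had -2.51 and -2.09, a mean of -2.30 ± 0.29, with 7.89% of genes lower. H2AX (chr11:118964584-118966175, minus strand) had -2.59 and -1.85, a mean of -2.22 ± 0.53, with 10.25% of genes lower. The replicate ranges of these 3 genes overlapped, so their order was not resolved.

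The 2 macroH2A genes lay higher than those 3. MACROH2A1 (chr5:134670071-134735604, minus strand), the gene of the protein that was precipitated, had gene levels of -1.29 and -1.43 in replicates 1 and 2. Its mean was -1.36 ± 0.10 (SD, n = 2), and 38.7% of measured genes lay lower. MACROH2A2 (chr10:71812300-71872038, plus strand), its paralog, had -1.27 and -1.02, a mean of -1.15 ± 0.17, with 43.4% of genes lower. The replicate ranges of the 2 macroH2A genes did not overlap, but their means differed by less than the median SD over the 6 members, which was 0.27 (0.16 over all measured genes).

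H2AJ (chr12:14927339-14930936, plus strand) was the member whose gene level differed most between the replicates, followed by H2AX. Its gene level was -0.99 in replicate 1 and 0.0075 in replicate 2, a mean of -0.49 ± 0.70 (SD, n = 2). In replicate 1 the gene lay inside a segment of 86.0 kb at -0.99, whereas in replicate 2 a segment of 8.12 kb at 0.0075, reaching from 2.52 kb before to 5.61 kb after the gene start, stood between neighbours at -1.38 and -2.01. The −log10 p of that short segment was 0.28, so it was not enriched. The replicates thus gave H2AJ segments of different length as well as level.

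**Figure D1:**
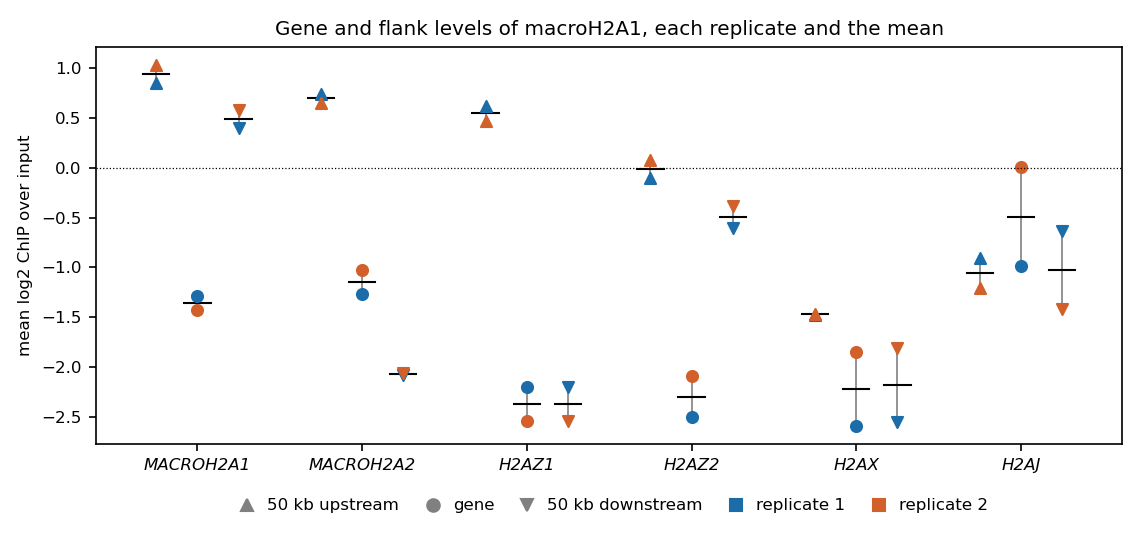
Mean log2 ratio of ChIP over input (vertical axis) in the 50 kb upstream of each gene, the gene and the 50 kb downstream, for each member; points are the 2 replicates, joined by a line, and bars their mean. The mean gene level lies below the upstream flank in 5 of 6 members, against 64.8% of measured genes, and H2AJ has the widest replicate gap in the gene, -0.99 and 0.0075.

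Away from the gene bodies the loci differed, and enriched chromatin began close to the gene start in several. The upstream 50 kb were above 0 in both replicates, with the gene below 0 in both, for MACROH2A1, MACROH2A2 and H2AZ1, 3 of 6 members, against 19.1% of measured genes. This count was chosen after the segments around the members were seen. The downstream counterpart held for 1 member, MACROH2A1, against 14.3%. Over all measured genes the median level was -0.30 in the upstream and -0.43 in the downstream 50 kb.

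MACROH2A1 lay between enriched segments on both sides. Its upstream 50 kb had levels of 0.85 and 1.03 in replicates 1 and 2, a mean of 0.94 ± 0.13 (SD, n = 2), and 92.9% of measured genes had a lower upstream flank. The enriched segment there was 57.8 kb long at 1.04 in replicate 1 and 57.3 kb long at 1.32 in replicate 2. It ended 4.29 kb and 5.10 kb before the gene start, so the replicates placed this edge within 0.82 kb of each other. DCANP1 and TIFAB, the coding genes inside it, were enriched over 100% of their spans and shared its level, 1.18 ± 0.20. On the other side an enriched segment began 19.1 kb and 18.3 kb beyond the gene's 3′ end. The downstream 50 kb averaged 0.49 ± 0.13, and the next coding gene, PITX1, a homeobox factor of the hindlimb, lay further away at -0.73 ± 0.18.

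The body of MACROH2A1 was not uniform in replicate 1. From the gene start onwards its segments stood at -1.10, -2.04, -0.74, 0.20 and -1.66, and the one at 0.20 was 3.57 kb long with a −log10 p of 0.77. Replicate 2 had a single segment at -1.45 over 98.5% of the gene. The inner steps were thus present in 1 replicate, and replicate 1 has shorter segments in general (median 27.4 kb, against 53.7 kb in replicate 2).

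At MACROH2A2 the change in level fell near the gene start, but the replicates placed it differently. The upstream 50 kb stood at 0.74 and 0.65 in replicates 1 and 2, a mean of 0.70 ± 0.06 (SD, n = 2), with 98.9% of assayed bases enriched in both. Replicate 1 placed the end of the enriched segment 0.56 kb before the gene start and replicate 2 placed it 3.78 kb inside the gene. The promoter sequence shown above was therefore at -1.14 in replicate 1 and at 0.65 in replicate 2. From there the level stepped down along the gene, to -1.14 and then -1.73 in replicate 1 and to -0.89 and then -2.06 in replicate 2. The downstream 50 kb were at -2.07 ± 0.02, and 6.12% of measured genes had a lower downstream flank. That flank holds AIFM2, which overlaps the 3′ end of MACROH2A2 on the other strand (-1.82 ± 0.15), TYSND1 (-2.25 ± 0.27) and SAR1A (-2.26 ± 0.28). The next coding gene upstream, the collagen gene COL13A1, was at -0.50 ± 0.03.

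The H2A.Z genes each had an enriched segment a few kilobases before the gene. At H2AZ1 it ended 7.48 kb before the gene start in replicate 1 and 7.78 kb in replicate 2, at levels of 0.86 and 0.65. An intermediate step of 6.67 kb at -0.60 and 7.13 kb at -0.28 followed, and the low segment then began 0.81 kb and 0.66 kb before the gene start. That low segment, 75.2 kb and 78.6 kb long, also held the neighbour DNAJB14, a chaperone gene whose level of -2.38 ± 0.24 is the same measurement. The nearest coding gene on the upstream side, DDIT4L, was at 0.12 ± 0.03 and had no base enriched in both replicates.

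At H2AZ2 the enriched stretch was short and strong. It lay between H2AZ2 and PURB, a gene of a single-stranded DNA-binding protein, and was 21.5 kb long at 1.52 in replicate 1. In replicate 2 it was split into 10.7 kb at 2.18 and 8.92 kb at 0.85. It ended 2.94 kb and 2.68 kb before the H2AZ2 gene start. Because the rest of the upstream flank was low, the whole 50 kb averaged -0.01 ± 0.13, with signs that differed between replicates. PURB was at -1.09 ± 0.47 and PPIA, the cyclophilin A gene on the 3′ side, at -0.99 ± 0.13. A second enriched segment began 31.0 kb and 31.1 kb beyond the 3′ end of H2AZ2.

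**Figure D2:**
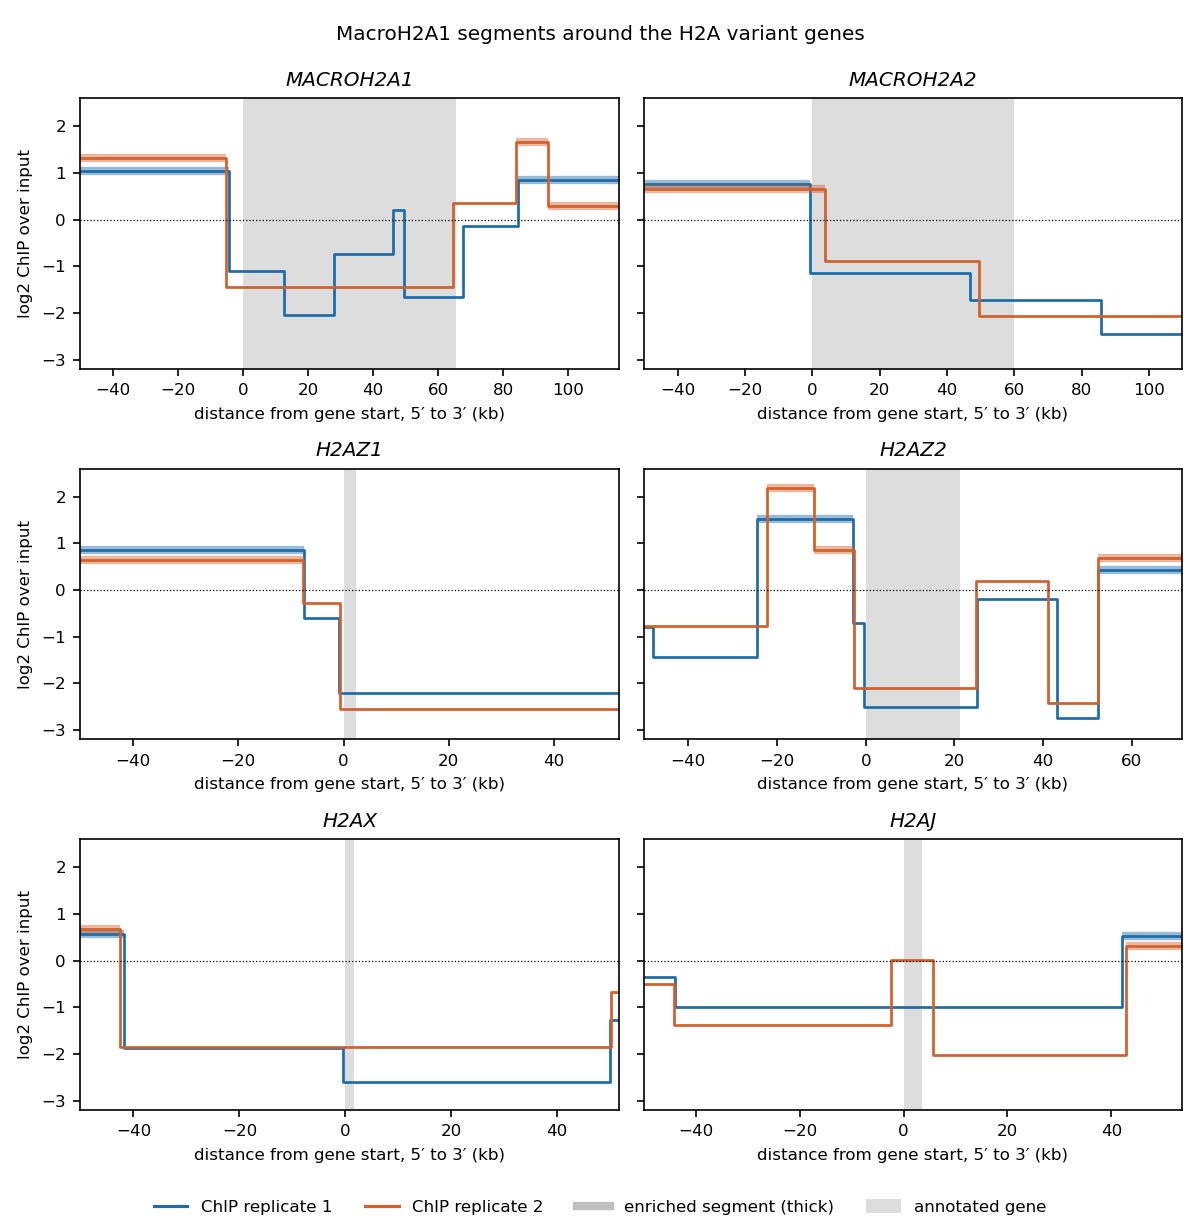
Log2 ratio of ChIP over input (vertical axis) of each deposited segment in the 2 replicates against distance from the gene start in the direction of transcription (horizontal axis, kb), for the 6 members; shading marks the annotated gene and thick lines the enriched segments. At MACROH2A1, H2AZ1 and H2AZ2 the gene is below 0 and an enriched segment ends within 10 kb before it in both replicates, against 16% of measured genes. The limit of 10 kb was not planned in advance. At MACROH2A2 the edge lies before the gene start in replicate 1 and inside the gene in replicate 2. The upstream edge is about 42 kb away at H2AX and 409 kb away at H2AJ.

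H2AX and H2AJ lay further from the nearest enriched segment upstream than the other members. Around H2AX both flanks were low, with -1.47 ± 0.01 (SD, n = 2) upstream and -2.18 ± 0.52 downstream. The nearest enriched segment upstream ended 41.7 kb and 42.5 kb before the gene start in replicates 1 and 2. On the other side one began 53.9 kb and 56.6 kb after the gene start. The H2AX window holds 6 other coding genes, all with no base enriched in both replicates. On its 5′ side the closest is DPAGT1, a gene of protein glycosylation, at -1.86 ± 0.02. The low segment that holds H2AX in replicate 1 began 0.46 kb before the H2AX start. Around H2AJ the nearest enriched segment upstream ended 409 kb before the gene start in both replicates. Downstream one began 42.0 kb and 42.9 kb after the gene start, 193 kb long at 0.52 and 185 kb long at 0.30. C12orf60, enriched over 86.8% of its span in both replicates (0.16 ± 0.24), and ART4 (100%, 0.41 ± 0.15) lay partly or wholly in it. H4C16, a histone H4 gene on the 5′ side, 3.27 kb from H2AJ, was at -1.19 ± 0.28, and WBP11 on the other side at -1.50 ± 0.73.

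The upstream edge of enrichment lay outside the gene in both replicates, and within 1 kb between them, at 5 of 6 members, against 23.4% of measured genes. This count, with its limit of 1 kb, was chosen after the edges were seen. Measured genes whose start lies inside an enriched segment cannot meet it. The edges differed by 0.82 kb at MACROH2A1, 0.30 kb at H2AZ1, 0.26 kb at H2AZ2, 0.76 kb at H2AX and 0.59 kb at H2AJ. At MACROH2A2 the replicates' edges fell on either side of the gene start. Among the 13586 measured genes below 0 in both replicates, the median distance to the upstream edge was 56.4 kb, with a lower quartile of 3.36 kb. A gene level below 0 together with an upstream edge within 10 kb and outside the gene, all in both replicates, was found for MACROH2A1, H2AZ1 and H2AZ2, 3 of 6 members, against 16% of measured genes. This count, with its limit of 10 kb, was not planned in advance. Of the genes below 0 in both replicates, 26.9%, 29.8% and 23.8% had a smaller mean distance than MACROH2A1, H2AZ1 and H2AZ2.

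Over the whole window, gene and flanks together, the members spread widely. All 6 windows were below 0 in both replicates, against 73.8% of measured genes, and none was enriched over at least 50% of its assayed bases in both, against 20.9%. H2AX had the lowest window, at -2.02 and -1.64 in replicates 1 and 2 (-1.83 ± 0.27, SD, n = 2), and 4.36% of measured genes lay lower. H2AJ (-1.02 ± 0.34), H2AZ1 (-0.95 ± 0.17) and MACROH2A2 (-0.85 ± 0.06) followed. The replicate range of H2AJ overlapped that of H2AZ1, and that of H2AZ1 overlapped that of MACROH2A2. The MACROH2A2 range did not reach that of H2AZ2. H2AZ2 stood at -0.61 ± 0.17. MACROH2A1 had the highest window, at -0.13 and -0.08 (-0.10 ± 0.04), with 73.2% of measured genes lower and 45.8% of its bases enriched in both replicates. The median over all measured genes was -0.59. The order depends on the mean: as medians over bases H2AZ1 was lowest at -2.38, against -1.86 for H2AX, and MACROH2A1 was at 0.074.

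**Figure D3:**
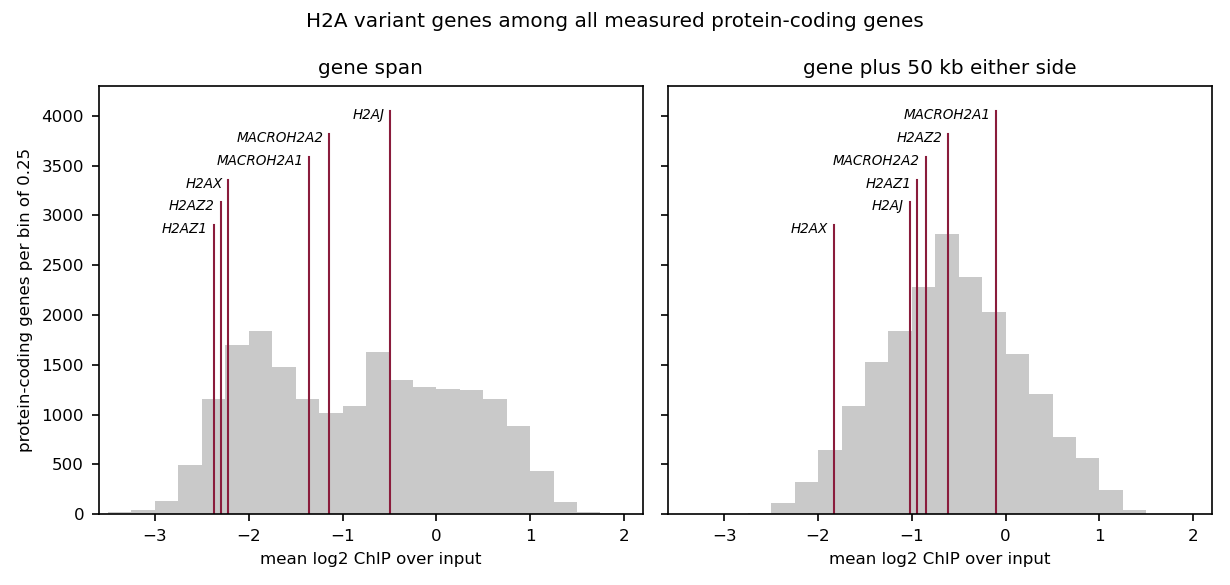
Number of protein-coding genes (vertical axis) by mean log2 ratio of ChIP over input in bins of 0.25 (horizontal axis), over the gene span (left) and over the gene plus 50 kb either side (right); lines mark the 6 members. By gene span H2AZ1, H2AZ2 and H2AX lie in the lower of the 2 humps, and by window H2AX is lowest and MACROH2A1 highest of the 6.

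Genes that act with the H2A variants had low levels for the most part. In 3 such lists, 40 measured genes in all, none was enriched over at least 50% of its span in both replicates, against 19.3% of all measured genes, and 38 were below 0 in both, against 69.7%. All 16 genes that deposit or remove H2A.Z were below 0 in both replicates, with a median of -1.89. They ran from SRCAP, the motor of a complex that places H2A.Z, at -2.75 ± 0.11 (SD, n = 2), to RUVBL1, a helicase of the same complexes, at -1.03 ± 0.28. All 12 genes of H2AX damage signalling were below 0, with a median of -2.15, from BAZ1B, a kinase of H2AX, at -2.42 ± 0.04 to BRCA1, a repair factor, at -1.01 ± 0.07.

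The list of macroH2A partners and splicing regulators had 10 of 12 genes below 0 in both replicates and a median of -1.75. SUPT16H, a subunit of the histone chaperone FACT, was lowest at -2.52 ± 0.32. ATRX, a chromatin remodeller encoded on chromosome X, was highest at 0.50 and 0.08 in replicates 1 and 2 (0.29 ± 0.30). PARP1, whose protein binds the macro domain, was at -2.37 ± 0.05, and QKI, a regulator of MACROH2A1 splicing, at -1.93 ± 0.26.

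The other histone genes were mixed, and the replicates differed on them. The canonical H2A genes, which are clustered on chromosomes 1 and 6, were below 0 in both replicates in 14 of 15 measured cases, against 69.7% of all measured genes. Their median was -1.18 in replicate 1 and -0.56 in replicate 2, against -0.88 and -0.75 for all measured genes, and 6 of the 15 lay above the all-gene median of -0.82 by their mean. They ran from H2AC20 (-2.29 ± 1.68) to H2AC17 (-0.38 ± 0.26), and near-identical copies make their mapping uncertain. Of 7 other histone genes, mostly replacement variants, 6 were below 0 in both, again against 69.7%, from H3-3A, an H3.3 gene, at -1.86 ± 1.05 to H3-5, at 0.61 and 0.08 (0.35 ± 0.37). Neighbouring genes share segments, so these counts are not of independent measurements.

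**Figure D4:**
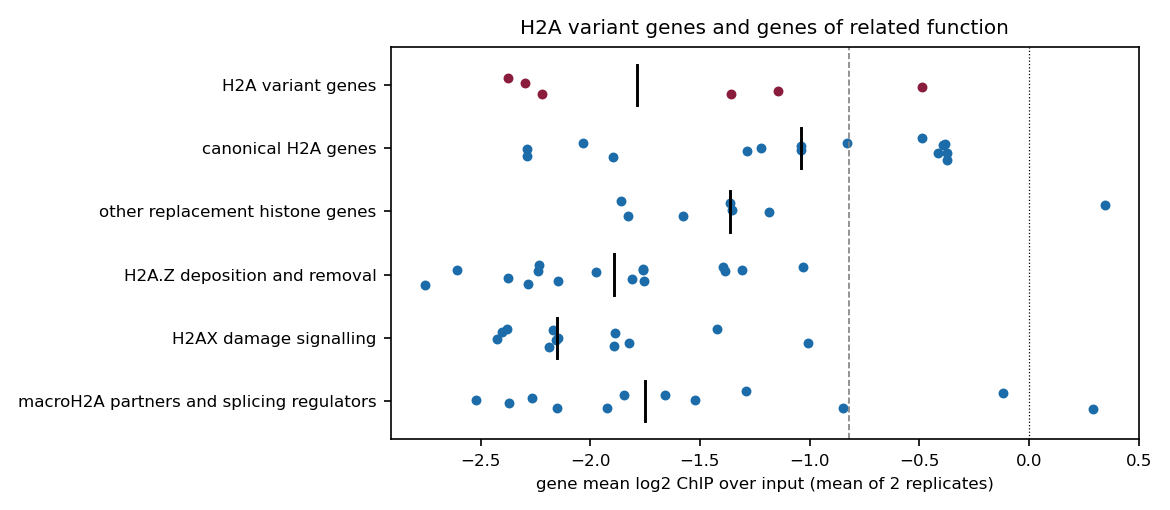
Gene level as mean log2 ratio of ChIP over input, averaged over the 2 replicates (horizontal axis), for each measured gene of the 6 H2A variants and of 5 related lists; black bars are list medians, the dashed line is the median of all measured genes (-0.82) and the dotted line is 0. The medians run from -2.15 for H2AX damage signalling to -1.04 for the canonical H2A genes, with -1.79 for the H2A variants.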

How the data were processed

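MacroH2A1 ChIP-seq was made from sonicated chromatin of about 500 bp, per the labels' protocols. CASAVA 1.7 and build hg19 are named in the submitters' processing notes; for the aligner, the segmentation program and the scaling nothing was found in the labels or headers. The authors deposited 1 segmentation for each ChIP replicate, not pooled, which gives each segment the ChIP-over-input ratio on a log2 scale and a −log10 p. The file headers give no unit; base 2 was inferred because powers of 2 with these exponents had means of 1.01 and 0.995 per assayed base (powers of e, 1.14 and 1.12). Read depth is unknown, so no counting interval was made, and 2 replicates of 1 condition allow no test.

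Segments with both values at 0 were taken as not assayed, and gaps inside segments were left out (2788 and 2756 Mb assayed). Values were averaged by base with numpy 2.4.6 (Python 3.11.15), a procedure tested on simulated data. Genes were those of GENCODE release 44 mapped to GRCh37, on chromosomes 1 to 22 and X, with at least 50% of both the span and the window in blocks of both replicates (19483 of 20098). All 23 chromosomes ended within the GRCh37 lengths, and 0.181% and 0.00138% of assayed bases were unresolved there (6.61% of the reference). Coordinates count from 1. Upstream edges were taken after enriched pieces within 1000 bases were joined.

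The members, lists and measures were chosen with earlier results of these data known. All 6 members were named, with coding neighbours enriched over at least 50% of their span or else the nearest on each side, and the highest and lowest gene of each list, besides a few added after their values were seen (TYSND1, SAR1A, PARP1, QKI and, under the closing observations, H2AC21, H2AC15, H2AC4, MACROD1, KAT5 and PPP4C). The alternatives were other windows, the canonical transcript, segments with their gaps, medians over bases, stricter thresholds, other background genes and each replicate alone. H2AC18, H2AC19, H2AB1, H2AB2, H2AB3 and H2BU1 were not measured. Of the neighbours that the rule names, 1 is not reported here.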

Additional observations from a re-analysis of the deposited data

How the results depend on the processing

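No paired analysis was possible because the results come from no test and the numbered inputs enter only as the authors' denominator. All 6 windows stayed below 0 in both replicates with 10 kb flanks, the canonical transcript and whole segments. With 100 kb and as medians over bases 5 did, and in 5 kb around the gene start 4 did. Either replicate alone also gave 6, which follows from the count in both replicates. The median window level of the 6 members (-0.90) was -1.17 with 10 kb and -0.52 with 100 kb on either side, -1.48 in 5 kb around the gene start and -1.10 as a median over bases, and -0.94 and -0.80 with 1 replicate. With 100 kb, 2 members, MACROH2A1 (65.3%) and H2AZ1 (54.8%), were enriched over at least 50%, and MACROH2A1 was at 0.28; as a median over bases it was at 0.074 and H2AZ1 at -2.38 (mean -0.95). MACROH2A2 was at 0.12 in 5 kb around the start, from -0.40 and 0.65 in the replicates. All 6 windows held some base enriched in both replicates. Of all assayed bases, 35.5% and 33.3% were enriched in replicates 1 and 2, which is a share of bases and not of windows. Shares over all measured genes are not given for these alternative settings, so their counts describe the members only. No member's gene was enriched over 50% in any setting run. The stricter thresholds among these settings could not have raised that count. The median gene level (-1.79) ran from -1.75 to -1.64 with 1 replicate. Of the list genes, from 1 to 2 were enriched in a single replicate: H3-5 and ATRX in replicate 1 and MACROD1 in replicate 2. The count of members with the upstream flank above 0, with alternatives chosen after seeing the data, was 3, and 4 with 25 kb or in replicate 2 alone. Unknown depth leaves counting error out of every SD, and genes shorter than the segments (H2AZ1, H2AX, H2AJ) carry the value of a longer stretch.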

Other observations

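Several list genes had replicate levels that differed by more than 1 log2 unit. H2AC20 and H2AC21, which share segments, were at -3.48 in replicate 1 and -1.10 in replicate 2. H3-3A was at -1.12 and -2.60, KAT5, an acetyltransferase of the TIP60 complex, at -2.49 and -1.02, H2AC15 at -1.89 and -0.56, and PPP4C, a phosphatase subunit that acts on phosphorylated H2AX, at -2.81 and -1.50. H2AC4 differed in sign as well, at -1.10 and 0.12, as did MACROD1 with a smaller gap, at -0.29 and 0.061.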
